A study of Mus musculus with 3 samples.

Results

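Glucocorticoid-responsive genes were described in nuclei of mouse brown adipose tissue (BAT) as 8 genes chosen by name: Nr3c1, Fkbp5, Tsc22d3, Zbtb16, Sgk1, Mt1, Mt2 and Hsd11b1. They are 8 of the 21214 genes listed in all 3 count tables of the series, and the rule names them and uses no threshold on a measured value. The question was whether genes that answer the stress hormone differed between untreated BAT, BAT labelled as sham-operated and denervated BAT, and in which type of nucleus.

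All 3 libraries are labelled as adult WT mice of the C57Bl6 strain, and the study used male mice only, with an age of 8 weeks given for the isolation of nuclei. The header of the denervated table names its run nKO-WTA_1, where that of the untreated table has nC-WTA_1, and no source used here explains the KO in this name. The labels were followed, and a genotype other than WT in the denervated library was not tested. The untreated library was made without treatment and the sham library after a sham operation. The denervated library came from the denervated side of interscapular BAT of mice whose left intercostal nerves had been cut 3 days earlier. The nerves of the right side were left intact. The untreated and the denervated library each came from 20 mice, tamoxifen was given to the denervated mice, and animals were anaesthetised with ketamine and xylazine before procedures. The number of mice behind the sham library, the day and hour of its sampling, whether it came from the intact pads of denervated mice or from other mice, and whether the other 2 groups received tamoxifen are not given in the sources used here. The digested tissue was spun, and its floating part, with brown adipocytes (BAs) and pieces of vasculature, gave the nuclei, which were sorted before capture.

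Each condition was 1 library, and no test between conditions was possible. Values are given as unique molecular identifiers (UMIs) of a gene per 1000000 UMIs of a nucleus type, abbreviated CPM. Each is followed by a 95% interval that covers counting error only, and not the spread between animals, operations or libraries. A gene was called higher or lower where the log2 ratio of CPM between 2 libraries was at least 1 in size and the gene had at least 50 UMIs in both together. The share of all genes called in the same way is printed beside each count of members.

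The libraries held 13707 to 15822 barcodes and 9420030 to 14971579 UMIs, and 9244 to 10352 nuclei per library were kept. The denervated library was the shallowest, at a median of 428 UMIs per barcode against 859 in the untreated library. The sham library stood apart by its mitochondrial UMIs, 12.9% of the total against 6.71% in the untreated and 2.95% in the denervated library, and by a table that carries no header. Pairs of libraries shared 251 to 278 barcodes, where random draws would share 238 to 275. Nuclei were typed from marker genes with the members left out of the clustering. The brown adipocyte-like class held 4268 untreated, 3175 sham and 4905 denervated nuclei, and 9 to 10 of its 11 markers were over 2-fold above the other nuclei. Endothelial-like nuclei (ECs; 4026, 4156 and 2311) exceeded the other nuclei over 2-fold in all 14 of their markers, and pericyte-like nuclei (PCs; 604, 1249 and 765) in all 9.

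Glucocorticoids, of which corticosterone is the main one in mice, are released by the adrenal cortex under stress, surgery and anaesthesia, and with a daily rhythm. They bind the glucocorticoid receptor, a transcription factor encoded by Nr3c1 that sits in the cytoplasm with heat shock proteins until the hormone releases it into the nucleus. The bound receptor raises genes that feed back on the signal, among them Fkbp5, a co-chaperone that lowers hormone binding, and Tsc22d3, which encodes the anti-inflammatory protein GILZ. Zbtb16 encodes the zinc finger repressor PLZF, Sgk1 a kinase that acts on ion transport and survival, and Mt1 and Mt2 metallothioneins, small cysteine-rich proteins that bind zinc and copper and that metals and inflammation raise as well. Hsd11b1 encodes the enzyme that regenerates active hormone from its inert form inside adipose and liver cells.

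Promoter sequences of 3 members are shown with the letters that the bound receptor and the metal sensor MTF1 prefer. They are the 250 bases before a transcription start in RefSeq on GRCm38.p6, 5′ to 3′ on the strand of the gene, in lower case with the searched letters in capitals. In the Sgk1 sequence the capitals mark the receptor's palindrome, AGAACA and TGTTCT with any 3 bases between them. In the Mt1 and Mt2 sequences they mark the core of a metal response element, TGCACNC or TGCGCNC, read on either strand.
Sgk1, chr10:21993640-21993889, plus strand: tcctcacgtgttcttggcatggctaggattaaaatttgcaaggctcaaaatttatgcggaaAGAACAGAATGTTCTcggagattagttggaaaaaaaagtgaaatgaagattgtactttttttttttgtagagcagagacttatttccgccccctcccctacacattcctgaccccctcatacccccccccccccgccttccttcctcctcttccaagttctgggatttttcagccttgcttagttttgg
Mt1, chr8:94178839-94179088, plus strand: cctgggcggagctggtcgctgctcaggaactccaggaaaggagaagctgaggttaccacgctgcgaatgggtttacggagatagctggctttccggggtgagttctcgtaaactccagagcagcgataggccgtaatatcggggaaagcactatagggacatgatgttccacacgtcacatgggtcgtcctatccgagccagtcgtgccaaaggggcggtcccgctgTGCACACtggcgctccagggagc
Mt2, chr8:94172368-94172617, plus strand: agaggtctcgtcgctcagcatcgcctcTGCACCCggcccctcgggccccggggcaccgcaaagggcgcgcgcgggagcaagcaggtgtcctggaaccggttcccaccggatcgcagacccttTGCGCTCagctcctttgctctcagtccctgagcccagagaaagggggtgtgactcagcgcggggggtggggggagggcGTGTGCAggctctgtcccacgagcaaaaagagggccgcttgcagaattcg

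The Sgk1 palindrome lies 189 to 175 bases before the start, and this window sits within an intron of the longer Sgk1 gene model of GENCODE, chr10:21882184-21999903, since RefSeq lists several starts for the gene. The windows of the other listed Sgk1 starts lacked the palindrome, and which start these nuclei use was not tested. Only 3 of 32851 promoters (0.00913%) held the palindrome in the 250 bases. A metal response core was found in 21.4% of promoters, and 1.26% held at least 3, as Mt2 does. The Mt1 window ends 7 bases inside the first exon of the GENCODE model of Mt1 (chr8:94179082-94180327), and the Mt2 window, upstream of Mt2 (chr8:94172664-94173568), lies within an exon of the neighbouring non-coding model Gm45774. Of the other members with a promoter in the table, Hsd11b1 held 1 metal response core and neither Fkbp5 nor Tsc22d3 held the palindrome. Bases after the listed starts were not searched, so the 1 core of the Mt1 window is no count for its whole promoter. These matches describe letters in a window and say nothing of whether a factor was bound.

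Nr3c1 itself was detected in every class of nuclei and differed little between libraries. In BA-like nuclei its level was 208 CPM in the untreated (95% interval, 198 to 219), 205 in the sham (192 to 219) and 186 in the denervated library (174 to 198). In ECs it was 327, 256 and 242 CPM in the same order, and in PCs 337, 374 and 323. The intervals of the 3 libraries overlapped in PCs and, with the denervated one just touching the untreated, in BA-like nuclei, while in ECs the untreated level (306 to 349) stood above both operated ones (236 to 277 in sham and 215 to 272 in denervated). None of the 9 ratios of Nr3c1 between libraries reached 2-fold: the lowest log2 ratio was -0.43 (-0.63 to -0.24) for denervated over untreated ECs. Within each library the receptor was lower in BA-like nuclei than in ECs, by log2 ratios of -0.65 (-0.77 to -0.53), -0.32 (-0.47 to -0.17) and -0.38 (-0.57 to -0.19).

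Zbtb16 had the largest difference among the members. Its level in BA-like nuclei was 58.0 CPM in the untreated (52.7 to 63.6), 636 in the sham (613 to 660) and 112 in the denervated library (103 to 122). In ECs it was 26.6 (20.8 to 33.5), 379 (355 to 404) and 69.5 CPM (55.4 to 86.2), and in PCs 37.2 (22.4 to 58.0), 249 (219 to 282) and 87.7 CPM (60.0 to 124). The sham library was the highest in all 3 classes, and the intervals of the 3 libraries did not overlap in any of them. Sham over untreated, the log2 ratio was 3.46 in BA-like nuclei (3.31 to 3.60; 11-fold), 3.83 in ECs (3.49 to 4.20; 14.3-fold) and 2.75 in PCs (2.07 to 3.50; 6.71-fold). Among all genes tested, only 9 of 11490 in BA-like nuclei, 1 of 9457 in ECs and 6 of 6167 in PCs had a higher ratio. Zbtb16 spans 182 kb of chromosome 9 (chr9:48654297-48836222), and of the genes of at least 100 kb only 3.31% were called higher in the sham BA-like nuclei, fewer than the 14.1% of genes under 10 kb. In denervated over untreated BA-like nuclei and ECs long genes were instead called higher more often, 10.2% of those of at least 100 kb against 3.34% of those under 10 kb in BA-like nuclei, and 16.6% against 6.72% in ECs, while in PCs it was 6.13% against 10.8%.

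The share of nuclei with a Zbtb16 UMI was counted next. Of 3175 sham BA-like nuclei, 1582 (49.8%; exact binomial interval, 48.1 to 51.6) held a Zbtb16 UMI, 855 of them 1 UMI, 421 of them 2 and 306 at least 3, up to 8. In the untreated library 364 of 4268 (8.53%; 7.71 to 9.41) held a UMI, and 12 held at least 3. No class is known here to lack Zbtb16, so no share in such a class stands beside these. The profile of all barcodes was estimated to make up 9.04% of the UMIs of sham and 9.15% of those of untreated BA-like nuclei, and its subtraction left 2668 of 2846 sham and 413 of 449 untreated Zbtb16 UMIs. In the 56 sham immune-like nuclei Zbtb16 was at 150 CPM (60.2 to 309) from 7 UMIs. Since the untreated nuclei were deeper, with a median of 1815 UMIs against 1410 in sham and 888 in denervated, nuclei were thinned to 800 UMIs each. The thinned shares were 4.57% of 3915 untreated, 36.1% of 2722 sham and 5.78% of 2874 denervated nuclei, after leaving out 353, 453 and 2031 shallower ones. Shares in the ECs were 1.56% of 1215, 21.4% of 687 and 7.34% of 286 thinned nuclei. The untreated and denervated intervals in BA-like nuclei (3.94 to 5.27 and 4.95 to 6.69) overlapped at that depth. At 500 UMIs, which leaves out 541 denervated nuclei in place of 2031, Zbtb16 was in 2.95% of untreated (2.46 to 3.52), 24.7% of sham (23.2 to 26.3) and 5.04% of denervated BA-like nuclei (4.41 to 5.73), and no intervals overlapped.

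**Figure D1:**
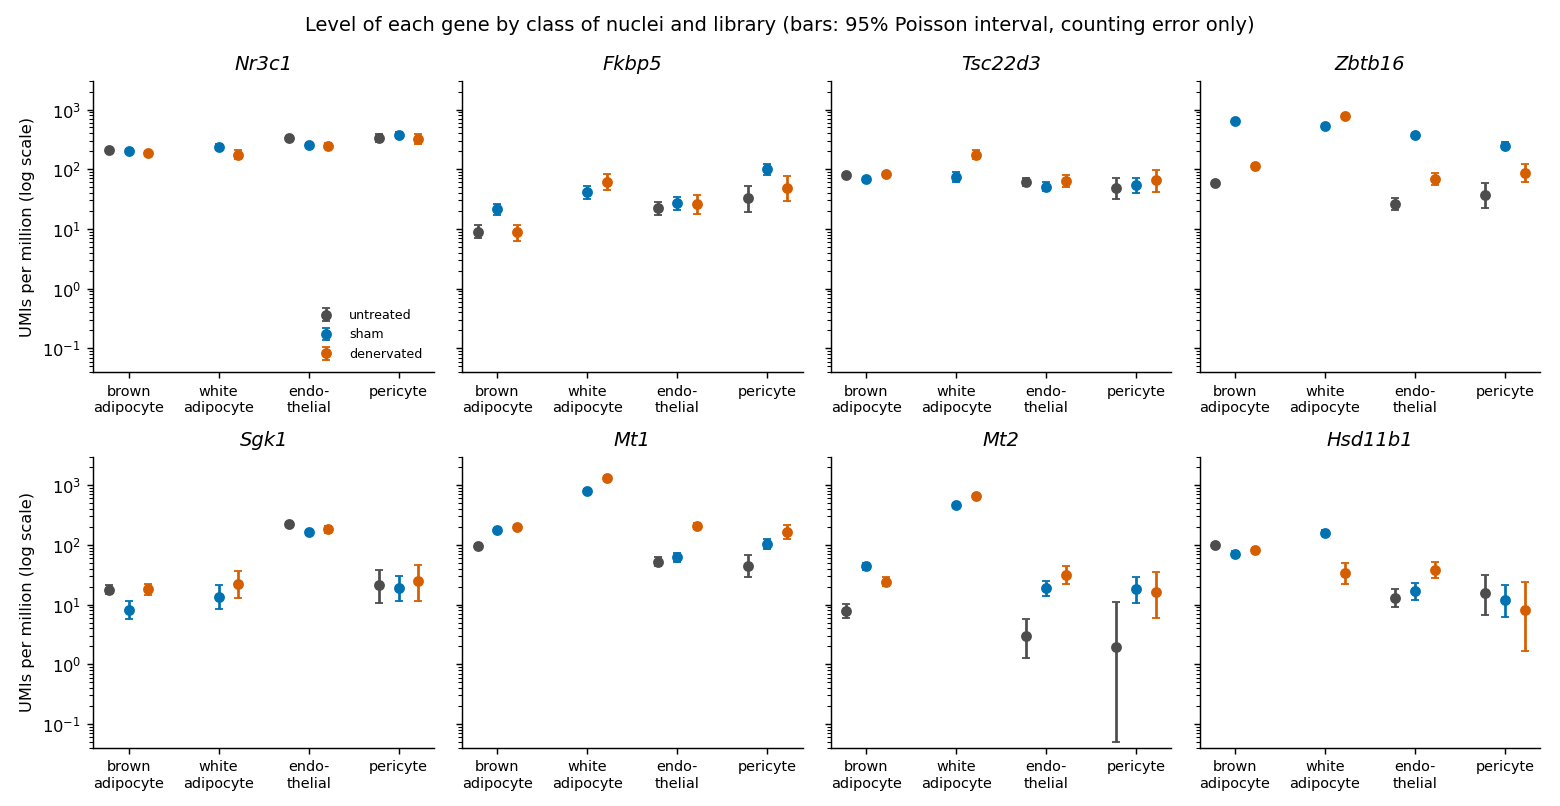
Level of each of the 8 genes (CPM, log axis) by nucleus class in the untreated, sham and denervated libraries; points are the level of 1 library and bars its 95% counting interval, and the untreated library has no white adipocyte-like class. Zbtb16 is highest in the sham library in BA-like nuclei, ECs and PCs, Sgk1 is highest in ECs among the classes drawn, and Mt1 and Mt2 are highest in white adipocyte-like nuclei.

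In denervated over untreated BAT, the log2 ratio of Zbtb16 was 0.95 in BA-like nuclei (0.77 to 1.14), 1.39 in ECs (0.91 to 1.86) and 1.24 in PCs (0.38 to 2.14). In denervated over sham BAT it was -2.50 (-2.64 to -2.37), -2.45 (-2.79 to -2.12) and -1.51 (-2.09 to -0.97). The values in ECs need the RNA of other nuclei beside them. The brown adipocyte marker list in ECs reached 13.7% of its BA-like level in the untreated, 12.2% in the sham and 34.4% in the denervated library, and Zbtb16 in ECs was at 45.9%, 59.6% and 61.9% of its own BA-like level. A list of 10 general adipocyte markers reached 23.5%, 23.6% and 40.5% in the same order. The 2 denervated EC clusters differed: the cluster with 4666 CPM of brown adipocyte markers had 102 CPM of Zbtb16 (79.6 to 130), and that with 1280 CPM of those markers had 26.9 CPM (14.7 to 45.2), near the 26.6 CPM of untreated ECs. The profile of all barcodes was estimated to make up 27.5% of the UMIs of untreated, 33.7% of sham and 52.0% of denervated ECs. It sums every barcode of the library, the nuclei themselves included. When this profile was subtracted, 0 Zbtb16 UMIs were left in denervated ECs against 562 in sham and 33.8 in untreated ECs. The part of free RNA in the EC levels was not tested beyond this 1 subtraction. With nuclei assigned from their own markers the denervated ratio in ECs was 0.49 (-0.24 to 1.17). In PCs 9.08 Zbtb16 UMIs were left in denervated and 11.8 in untreated nuclei, and the log2 ratio of 1.24 became 0.36, while in nuclei matched on UMIs it was 0.11 (-1.09 to 1.32). Matching on UMIs gave 0.51 (0.25 to 0.78) in BA-like nuclei.

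Fkbp5, the co-chaperone of the feedback loop, was a low gene, with 651 UMIs over all kept nuclei of the 3 libraries. In BA-like nuclei it was at 9.03 CPM in the untreated (7.04 to 11.4), 21.2 in the sham (17.2 to 26.0) and 8.75 in the denervated library (6.33 to 11.8). In PCs, where it was highest of these 3 classes, it was at 33.3 (19.4 to 53.3), 99.1 (80.6 to 121) and 49.3 CPM (29.2 to 77.9). Sham stood above the other two in both classes without overlap of these intervals. The log2 ratio sham over untreated was 1.23 in BA-like nuclei (0.77 to 1.70) and 1.58 in PCs (0.82 to 2.41), where 40 of 6167 genes had a higher ratio. Neither call held in nuclei without any UMI of heat shock and immediate early genes, an alternative chosen after seeing the data. Few UMIs there gave -0.27 (-2.49 to 2.36) and -0.50 (-2.22 to 1.31). A shallow nucleus more often lacks such a UMI, so that alternative selects on depth as well as on stress genes. The 2 were not told apart. With all libraries clustered together the BA-like ratio was 0.96. In ECs, Fkbp5 was at 22.1, 27.1 and 26.0 CPM, and the ratio was 0.29 (-0.23 to 0.82).

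Tsc22d3, another direct target, did not follow Zbtb16 and Fkbp5. Its level in BA-like nuclei was 81.1 CPM in the untreated (74.8 to 87.7), 67.3 in the sham (59.9 to 75.3) and 82.4 in the denervated library (74.6 to 90.8), so sham was the lowest. In ECs it was 60.5, 51.0 and 63.6 CPM, and in PCs 48.9, 54.1 and 65.8 CPM, with intervals that overlapped in each class. The sham over untreated log2 ratio was -0.27 (-0.47 to -0.07) in BA-like nuclei, -0.25 (-0.60 to 0.10) in ECs and 0.14 (-0.56 to 0.89) in PCs. A rise of 2-fold lies outside each of these 3 intervals.

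Sgk1 was highest in ECs among the 3 classes, with 227 CPM in untreated (209 to 245), 162 in sham (147 to 179) and 183 in denervated ECs (159 to 208). BA-like nuclei held 17.7 (14.8 to 20.9), 8.27 (5.82 to 11.4) and 18.1 CPM (14.5 to 22.3), and PCs 21.5, 19.0 and 24.7 CPM from 9 to 19 UMIs. BA-like over ECs, the log2 ratio was -3.68 (-3.96 to -3.41), -4.30 (-4.82 to -3.81) and -3.33 (-3.71 to -2.97). The sham library had the lowest level in both BA-like nuclei and ECs, opposite to Zbtb16: sham over untreated was -1.10 (-1.66 to -0.56) in BA-like nuclei and -0.48 (-0.67 to -0.30) in ECs. In ECs denervated over sham was 0.17 (-0.08 to 0.41) and turned to -0.53 with at least 500 detected genes. Sham over untreated ECs gave -0.15 at clustering resolution 1. Levels among EC clusters ran from 130 to 258 CPM in the untreated, 64.3 to 282 in the sham and 116 to 269 in the denervated library. The call in BA-like nuclei rests near the threshold and was lost, at -0.80 to -0.93, under 4 of the alternatives. With the profile of all barcodes subtracted, 9.15 UMIs were left in sham and 77.4 in untreated BA-like nuclei and the ratio was -2.29, and denervated over sham it was 2.29 against 1.13 as reported. Sgk1 was thus not higher in the sham than in the untreated library in BA-like nuclei or ECs.

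Mt1 and Mt2, which lie next to each other on chromosome 8, differed from untreated in both operated libraries. Mt1 in BA-like nuclei was at 97.2 CPM in the untreated (90.4 to 104), 176 in the sham (164 to 189) and 203 in the denervated library (190 to 216). In ECs it was at 52.4 (44.1 to 61.8), 62.1 (52.6 to 72.8) and 209 CPM (184 to 237), and in PCs at 45.0 (28.5 to 67.5), 104 (85.1 to 126) and 167 CPM (128 to 215). The denervated library was the highest in all 3 classes, and in ECs the untreated and sham intervals overlapped. Denervated over untreated, the log2 ratio of Mt1 was 1.06 in BA-like nuclei (0.92 to 1.2), 2.0 in ECs (1.69 to 2.31) and 1.89 in PCs (1.18 to 2.65). Sham over untreated, it was 0.86 (0.71 to 1.01), 0.24 (-0.10 to 0.58) and 1.21 (0.55 to 1.93). The call in sham PCs was lost at 0.92 (0.24 to 1.65) with nuclei assigned from their own markers. With all adipocyte-like clusters together, chosen after seeing the data, Mt1 was at 1.69 sham over untreated and 1.75 denervated over untreated. The denervated call in BA-like nuclei was lost at 0.95 with free RNA subtracted and at 0.13 (-0.62 to 0.93) in nuclei without any UMI of heat shock and immediate early genes, and in the latter the sham ratio in PCs was -0.33 (-2.41 to 1.94). In the 2 denervated EC clusters Mt1 was at 185 CPM (154 to 221) where brown adipocyte markers were high and at 240 CPM (200 to 286) where they were low, the reverse of Zbtb16. After subtraction of the profile of all barcodes, 60.5 of 250 Mt1 UMIs were left in denervated ECs, 76.4 of 142 in untreated and 0 of 151 in sham ECs, and denervated over untreated was 1.44.

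Mt2 had fewer UMIs. In BA-like nuclei it was at 7.87 CPM in the untreated (6.02 to 10.1), 43.6 in the sham (37.7 to 50.1) and 24.2 in the denervated library (20.1 to 29.0). In ECs 8, 46 and 38 UMIs gave 2.95 (1.27 to 5.82), 18.9 (13.8 to 25.2) and 31.8 CPM (22.5 to 43.7), and in PCs 1, 18 and 6 UMIs were found. Sham was the highest library for Mt2 in BA-like nuclei, whereas denervated was for Mt1. Neither order held under every alternative. Denervated over sham, Mt1 went from 0.20 to -0.35 with nuclei assigned from their own markers, to -0.02 on the mean log scale and to -0.34 in nuclei without stress gene UMIs, and Mt2 went from -0.85 to 0.29 in the latter. The log2 ratio sham over untreated was 2.47 in BA-like nuclei (2.05 to 2.91), where 66 of 11490 genes were higher, and 2.68 in ECs (1.58 to 3.97), where 7 of 9457 were. Denervated over untreated it was 1.62 (1.16 to 2.09) in BA-like nuclei. Mt1 spans 1.25 kb and Mt2 0.905 kb. Of the genes under 10 kb, 14.1% were called higher in sham over untreated BA-like nuclei, 5.34% in ECs and 8.84% in PCs. Denervated over untreated, these shares were 3.34%, 6.72% and 10.8%. In ECs and PCs the Mt2 UMIs left after subtraction of the profile of all barcodes were at or under 3. That profile includes the nuclei that hold most Mt2: white adipocyte-like nuclei had 709 of the 1202 Mt2 UMIs of all sham barcodes. The part of free RNA in the Mt2 levels of ECs and PCs was not tested further.

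Hsd11b1, the hormone-regenerating enzyme, was highest in BA-like nuclei among the 3 classes, at 98.1 CPM in untreated (91.2 to 105), 70.6 in sham (63.0 to 78.8) and 81.6 in denervated BA-like nuclei (73.8 to 90.0). ECs held 12.9 (9.0 to 18.0), 16.8 (12.1 to 22.9) and 38.5 CPM (28.2 to 51.4), and PCs 15.7, 12 and 8.22 CPM from 3 to 12 UMIs. Both operated libraries were below the untreated one in BA-like nuclei, by log2 ratios of -0.47 (-0.67 to -0.28) for sham and -0.27 (-0.44 to -0.09) for denervated. The ratio in ECs, denervated over untreated, was 1.58 (0.91 to 2.25). Hsd11b1 in denervated ECs was at 47.2% of the BA-like level, beside 34.4% for the brown adipocyte markers; it was at 59.3 CPM (42.4 to 80.8) in the EC cluster rich in those markers and at 11.5 CPM (4.23 to 25.1) in the other, which is near the untreated ECs. After subtraction of the profile of all barcodes 10.1 Hsd11b1 UMIs were left in denervated and 0 in untreated ECs, and the ratio was 3.53 with the untreated level at its floor of 3 counts. The call in ECs was lost, at 0.79 to 0.94, without removal of doublets, at clustering resolution 1 and in nuclei without stress gene UMIs.

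**Figure D2:**
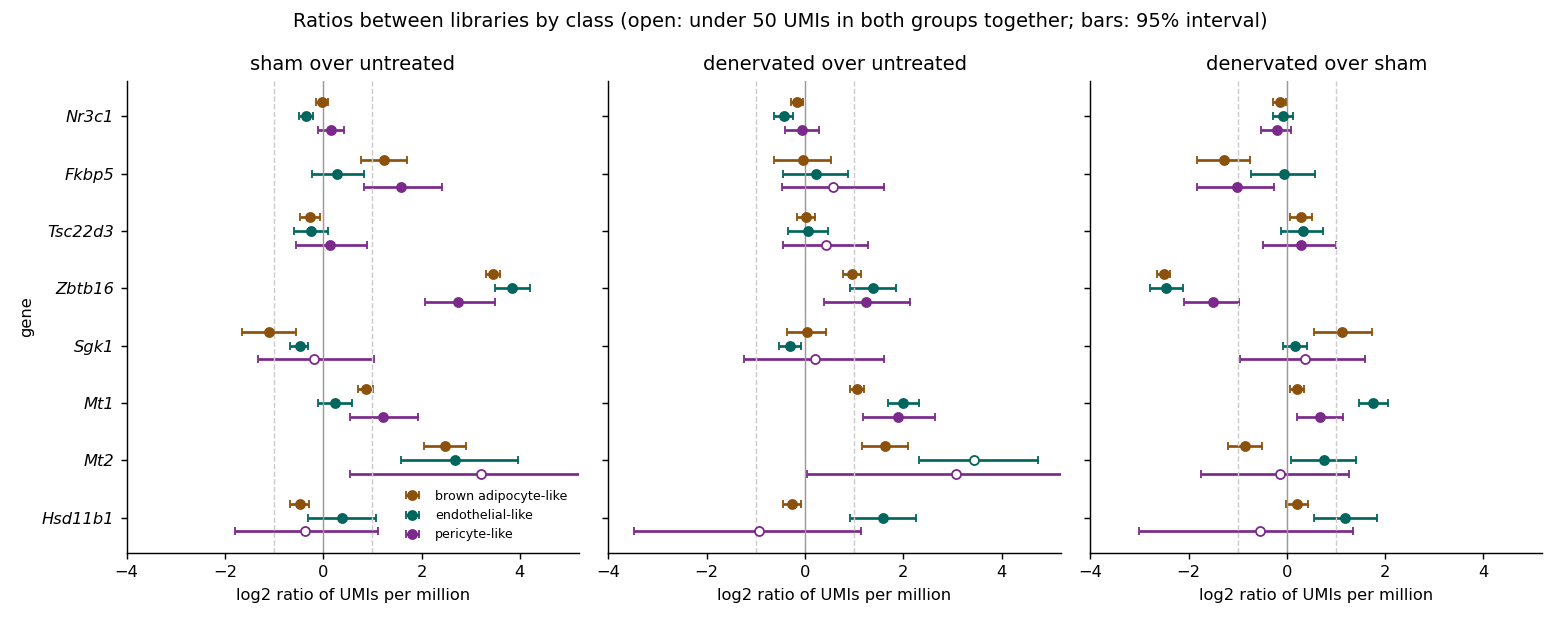
Log2 ratio of CPM for each of the 8 genes between pairs of libraries in BA-like nuclei, ECs and PCs; points are ratios, bars 95% counting intervals, and the intervals of Mt2 in PCs run past the edge of the plot. Zbtb16 lies at 3.46, 3.83 and 2.75 for sham over untreated, while Nr3c1 and Tsc22d3 stay within 1 log2 unit of 0 in each of the 9 comparisons.

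Counted together, 3 of the 8 members were called higher (Zbtb16, Mt2 and Fkbp5) and 1 lower (Sgk1) in sham over untreated BA-like nuclei, where 8.11% of the 11490 genes tested were called higher and 8.56% lower. In ECs 2 of 8 were higher (Zbtb16 and Mt2) and none lower, against 3.51% and 2.52% of 9457 genes. Mt2 had 46 sham and 8 untreated UMIs there, so it passed the minimum through the sham library, and none of them was left in either library after subtraction of the profile of all barcodes. In PCs 3 of the 5 members with enough UMIs were higher (Zbtb16, Fkbp5 and Mt1) and none lower, against 3.52% and 2.58% of 6167 genes. Over all 8 members, those under 50 UMIs included, the median log2 ratio was 0.42 in BA-like nuclei, 0.27 in ECs and 0.68 in PCs. Over the members with enough UMIs it was 0.42, 0.27 and 1.21, beside -0.04, 0.01 and -0.01 over all genes with enough UMIs. The members' ratios in BA-like nuclei ran from -1.10 to 3.46. Sgk1, with 37 sham and 137 untreated UMIs there, passed the minimum through the untreated library, where it is high. In PCs Fkbp5, Mt1 and Zbtb16 had 17 to 23 untreated UMIs and passed the minimum through the sham library, so their count there is a description of where they are high. The calls of Fkbp5 and Sgk1 in BA-like nuclei and of Fkbp5 and Mt1 in PCs did not hold under every alternative.

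Denervated over untreated, 2 of 8 members were called higher in BA-like nuclei (Mt2 and Mt1) and none lower, where 4.01% of 11767 genes were called higher and 1.33% lower. In ECs 3 of the 7 members with enough UMIs were higher (Mt1, Hsd11b1 and Zbtb16) and none lower, against 8.16% and 2.32% of 8740 genes. In PCs 2 of 3 were higher (Mt1 and Zbtb16) and none lower, against 4.78% and 4.14% of 4102 genes. Of these, the calls of Mt1 in BA-like nuclei, of Hsd11b1 and Zbtb16 in ECs and of Zbtb16 in PCs did not hold under every alternative, as given above for each gene. Mt1 and Zbtb16 in PCs, with 23 and 19 untreated UMIs, and Hsd11b1 in ECs, with 35, passed the minimum only together with their denervated UMIs. Over all 8 members, those under 50 UMIs included, the median was 0.03 in BA-like nuclei, 0.81 in ECs and 0.50 in PCs. Over the members with enough UMIs it was 0.03, 0.23 and 1.24, beside 0.00, 0.05 and -0.01 over all genes with enough UMIs.

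Denervated over sham, which shares its libraries with both comparisons above, 1 of 8 members was called higher (Sgk1) and 2 lower (Zbtb16 and Fkbp5) in BA-like nuclei, where 11.2% of 11109 genes were called higher and 8.73% lower. In ECs 2 were higher (Mt1 and Hsd11b1) and 1 lower (Zbtb16) of 8, against 9.75% and 5.64% of 8811 genes. In PCs none was higher and 2 of 5 were lower (Zbtb16 and Fkbp5), against 6.61% and 9.23% of 5808 genes. Zbtb16 (32 denervated and 249 sham UMIs) and Fkbp5 (18 and 99) passed the minimum in PCs through the sham library, where they are high. In BA-like nuclei Sgk1 (89 denervated and 37 sham UMIs) passed through the denervated library and Fkbp5 (43 and 95) through the sham library, where each is high. Of these calls, Sgk1 (0.71 to 0.97) and Fkbp5 (-0.72 and -0.92) in BA-like nuclei, Mt1 (0.94) and Hsd11b1 (0.91) in ECs, and Fkbp5 (-0.20 to -0.99) and Zbtb16 (-0.73) in PCs fell short of 2-fold under at least 1 alternative. Sgk1 and Fkbp5 in BA-like nuclei were at like levels in the untreated and denervated libraries, with log2 ratios of 0.03 (-0.37 to 0.43) and -0.05 (-0.63 to 0.52), and the sham library alone stood apart.

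**Figure D3:**
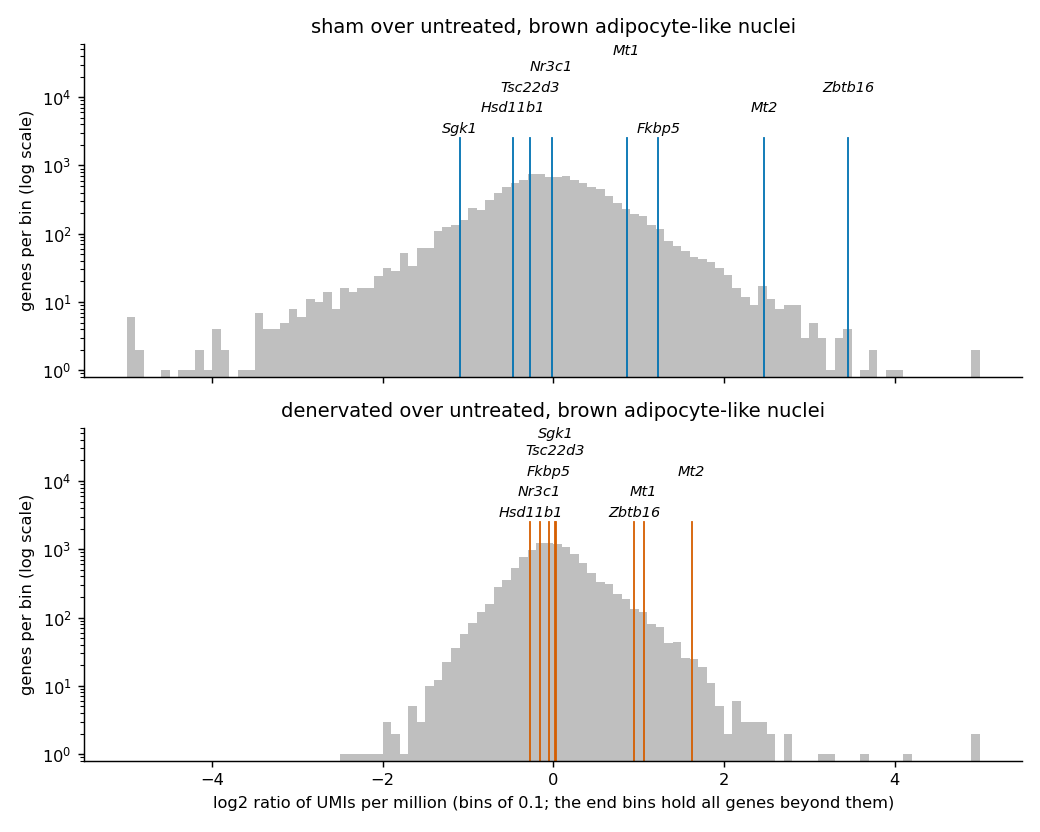
Number of genes (log axis) by log2 ratio in BA-like nuclei for sham over untreated and denervated over untreated, in bins of 0.1 whose end bins hold all genes beyond them, with the 8 members marked. Zbtb16 at 3.46 and Mt2 at 2.47 stand in the upper tail for sham, and Mt2 at 1.62 is the highest member for denervated.

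White adipocyte-like nuclei, 1189 in the sham and 833 in the denervated library, were the class with the most metallothionein. Mt1 was at 806 CPM in sham (762 to 852) and 1325 in denervated white-like nuclei (1244 to 1410), and Mt2 at 461 (427 to 496) and 657 (600 to 717). White-like over BA-like, the log2 ratio of Mt1 was 2.19 (2.06 to 2.32) in sham and 2.71 (2.58 to 2.84) in denervated, and that of Mt2 was 3.40 (3.17 to 3.64) and 4.76 (4.47 to 5.06). The untreated library had no class of this name, but an unnamed cluster of 134 nuclei led by Gm4841, Slc7a10 and Mt2, with white adipocyte and fibroblast markers, held 446 CPM of Mt1 and 367 of Mt2. The denervated class rests on 3 of 5 white markers over 2-fold above the other nuclei and the sham class on 5 of 5.

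Zbtb16 was high in this class in both operated libraries, at 539 CPM in sham (502 to 576) and 775 in denervated (713 to 840), and at 335 CPM (257 to 428) in the unnamed untreated cluster. White-like over BA-like it was -0.24 (-0.35 to -0.13) in sham and 2.79 (2.62 to 2.96) in denervated, so the class difference seen in the denervated library was not seen in the sham library. Tsc22d3 was at 73.4 CPM in sham and 175 CPM in denervated white-like nuclei, a log2 ratio denervated over sham of 1.25 (0.88 to 1.63). Hsd11b1 went the other way, from 159 (139 to 180) to 34.4 CPM (22.5 to 50.4), with a log2 ratio of -2.20 (-2.85 to -1.62). Fkbp5 was at 40.9 and 62.2 CPM, above its BA-like level in both libraries by log2 ratios of 0.95 (0.46 to 1.42) and 2.83 (2.20 to 3.46).

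These white-like nuclei also had the highest level of heat shock genes of all clusters in their library. The 12 heat shock genes reached 25050 CPM in sham and 15030 in denervated white-like nuclei and 7734 CPM in the unnamed untreated cluster, against 3398, 4263 and 3835 CPM in untreated, sham and denervated BA-like nuclei. The immediate early genes reached 9563 and 5271 CPM, against 964, 1751 and 1354 CPM in BA-like nuclei, and a denervated EC cluster had a higher level of them, 6201 CPM. Brown adipocyte markers were still at 5814 and 3054 CPM in them. The part of this stress signal, or of the handling of nuclei, in the levels of Mt1, Mt2 and Zbtb16 was not tested. In BA-like nuclei without any UMI of the heat shock and immediate early genes, 343 in sham and 169 of 4268 in untreated, the ratio was 3.66 for Zbtb16, 0.47 for Mt1, 1.06 for Mt2 and -0.27 for Fkbp5. The last 3 have wide intervals that include 0, such as -2.49 to 2.36 for Fkbp5, and these intervals also include the ratios found in all BA-like nuclei. Denervated over untreated, in 453 and 169 nuclei, Mt1 was at 0.13 (-0.62 to 0.93). Lacking these UMIs also depends on the depth of a nucleus, so this choice of nuclei does not set stress genes apart from depth.

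**Figure D4:**
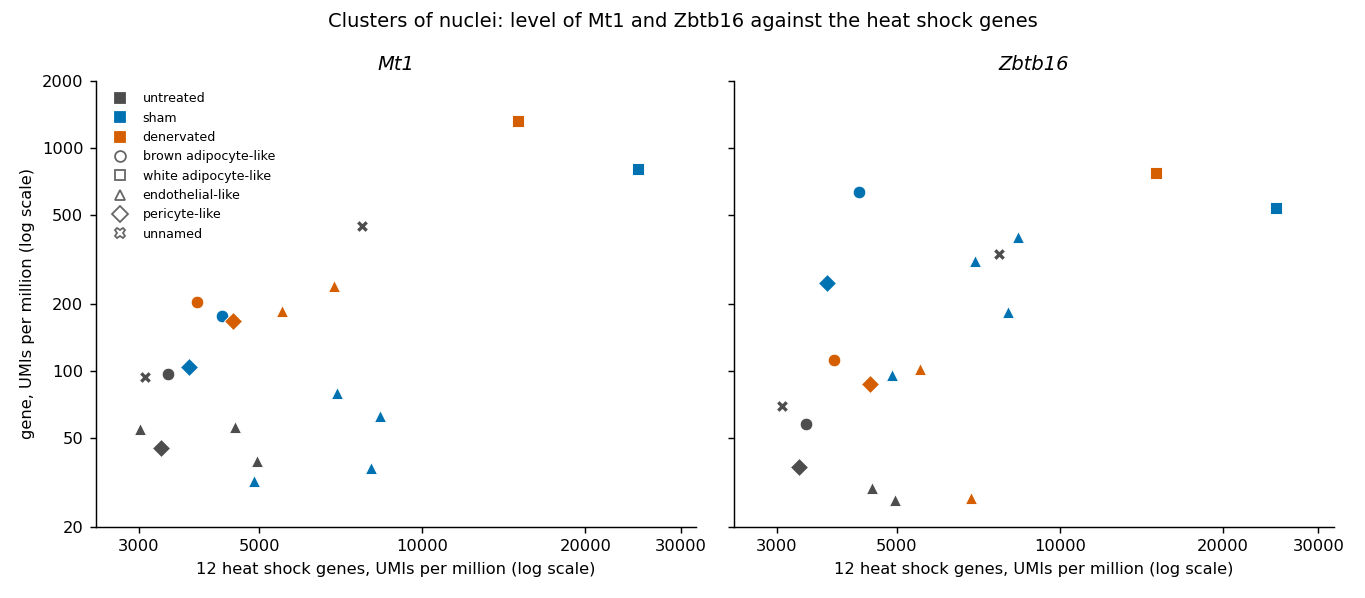
Mt1 and Zbtb16 (CPM, log axis) against the summed level of the 12 heat shock genes (CPM, log axis) in clusters of nuclei, coloured by library and shaped by class. Drawn are BA-like, white adipocyte-like, endothelial-like, pericyte-like and unnamed clusters. Clusters of all other classes, and clusters without a UMI of the gene, are not drawn. Among those left out, the denervated fibroblast-like cluster had 639 CPM of Mt1 at 7100 CPM of heat shock genes. White adipocyte-like clusters have the highest Mt1 and heat shock levels, and the sham BA-like cluster has 636 CPM of Zbtb16 at 4263 CPM of heat shock genes.

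Further genes of the pathway were counted from lists chosen by name. Of 50 further glucocorticoid target genes, 40 were tested in BA-like nuclei sham over untreated; 9 were called higher and 4 lower, with a median log2 ratio of -0.13, where 8.11% and 8.56% of all genes were called and their median was -0.04. These shares are the background for each list in that comparison, and for denervated over untreated they are 4.01% and 1.33% with a median of 0.00. Klf15, a transcription factor of fasting metabolism, went from 5.42 to 59.2 CPM (3.45; 2.98 to 3.96), Angptl4, an inhibitor of lipoprotein lipase, from 49.7 to 309 CPM (2.64; 2.47 to 2.80), and Mertk, a receptor for apoptotic cells, from 14.7 to 75.5 CPM (2.36; 2.05 to 2.68). Klf15 passed the minimum through the sham library, where it is high, so its call describes where it is high. Sorcs2 and Map2k6 had the lowest ratios, -2.45 and -1.79. Other direct targets, picked here after their values were seen, were not called: Per1 had a ratio of -0.14 (-0.53 to 0.24), Dusp1 of -0.92 (-1.17 to -0.68) and Klf9 of 0.56 (0.40 to 0.71). In denervated over untreated BA-like nuclei none of the same 40 was called higher and 1 was lower, Lox at -1.47; Gadd45b fell just short at 1.0 (0.27 to 1.74). Klf15 was at 4.88 CPM, Angptl4 at 54.9 CPM and Mertk at 17.1 CPM there, near their untreated levels.

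In ECs, 8 of 36 further targets were higher and 3 lower in sham over untreated (3.51% and 2.52% of all genes), with Angptl4 at 2.09, Acer2, a ceramidase, at 1.57 and Pdk4, which shuts pyruvate out of oxidation, at 1.56. In PCs 5 of 28 were higher and 1 lower (3.52% and 2.58% of all genes), with Angptl4 at 2.28, Sult1a1 at 1.49 and Pdk4 at 1.27. Angptl4 and Pdk4 were thus called higher in ECs and PCs, and both were in BA-like nuclei too, Pdk4 from 517 to 1634 CPM (1.66; 1.60 to 1.72). In sham ECs Pdk4 was at 12.6% and Angptl4 at 39.1% of the BA-like level, and in sham PCs at 7.78% and 24.6%, beside 12.2% (ECs) and 26.3% (PCs) for the brown adipocyte markers, so Pdk4 in both classes and, in PCs, Angptl4 stood near or below the share of those markers. The general adipocyte markers were at 23.6% in sham ECs and 15.6% in sham PCs, and Angptl4 in PCs stood above the share of that list. In denervated over untreated ECs 7 of 33 were higher and 2 lower (8.16% and 2.32% of all genes), led by Sorcs2 at 2.03, the repressor Bcl6 at 1.47 and Pdk4 at 1.47. Pdk4 in ECs was at 40.4% of its BA-like level in the denervated and 13.5% in the untreated library, beside 34.4% and 13.7% for the brown adipocyte markers. The general adipocyte markers were at 40.5% and 23.5%. The part of free RNA in the calls of Pdk4 and Angptl4 was not tested.

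Of 21 receptor partners tested, chaperones and coregulators, none was called in sham over untreated BA-like nuclei; the coactivator Ncoa1 was at -0.97 (-1.06 to -0.88) and Ncoa3 at 0.93 (0.73 to 1.12). Among hormone-metabolising genes 3 were tested, and H6pd, which supplies the cofactor of the Hsd11b1 enzyme, was lower at -1.14 (-1.27 to -1.01), from 283 to 129 CPM. Of 8 metal-response genes beside the metallothioneins only Slc39a14, a zinc importer, was higher, at 1.06 (0.83 to 1.29), in sham; none was called in the denervated library, although Mt1 and Mt2 were.

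Clock genes were counted because the hour of sampling is not given and the hormone follows a daily rhythm. Of 15 tested in sham over untreated BA-like nuclei, 1 was higher (Npas2, from 19.6 to 108 CPM, 2.46) and 3 were lower, with Bhlhe41 at -2.93 and Cry1 at -1.73. In denervated over untreated BA-like nuclei 1 of 15 was lower, Bhlhe41 at -1.04. Sampling time and sham operation cannot be told apart in these libraries.

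Of 12 immediate early genes tested in BA-like nuclei, 3 were higher in sham over untreated, Fos at 3.13, Fosb at 3.06 and Egr1 at 2.20, and 1 lower, Ier3 at -1.27, with a median of 0.68. Denervated over untreated, 2 of 12 were higher, Cyr61 at 1.21 and Junb at 1.19, and none lower, with a median of 0.58. Of 12 heat shock genes 2 were higher, Hspb1 at 1.2 and Dnajb1 at 1.12, and 1 was lower, Cryab at -1.73, in sham, and none was called in denervated BA-like nuclei. Of 19 acute phase genes and cytokines 6 were tested in sham, with 1 higher (Socs3, 2.41, from 40 sham and 13 untreated UMIs) and 1 lower (Il1r1, -1.26, from 20 and 83), each of which passed the minimum through the library where it is high, and 7 in denervated BA-like nuclei, with 4 higher and none lower, led by Cxcl1 at 6.04 and Saa3 at 5.51, which had 3 and 4 untreated UMIs and passed the minimum through the denervated library. Hp was at 1.75 and Osmr at 1.63. Their part in the metallothionein levels was not tested.

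**Figure D5:**
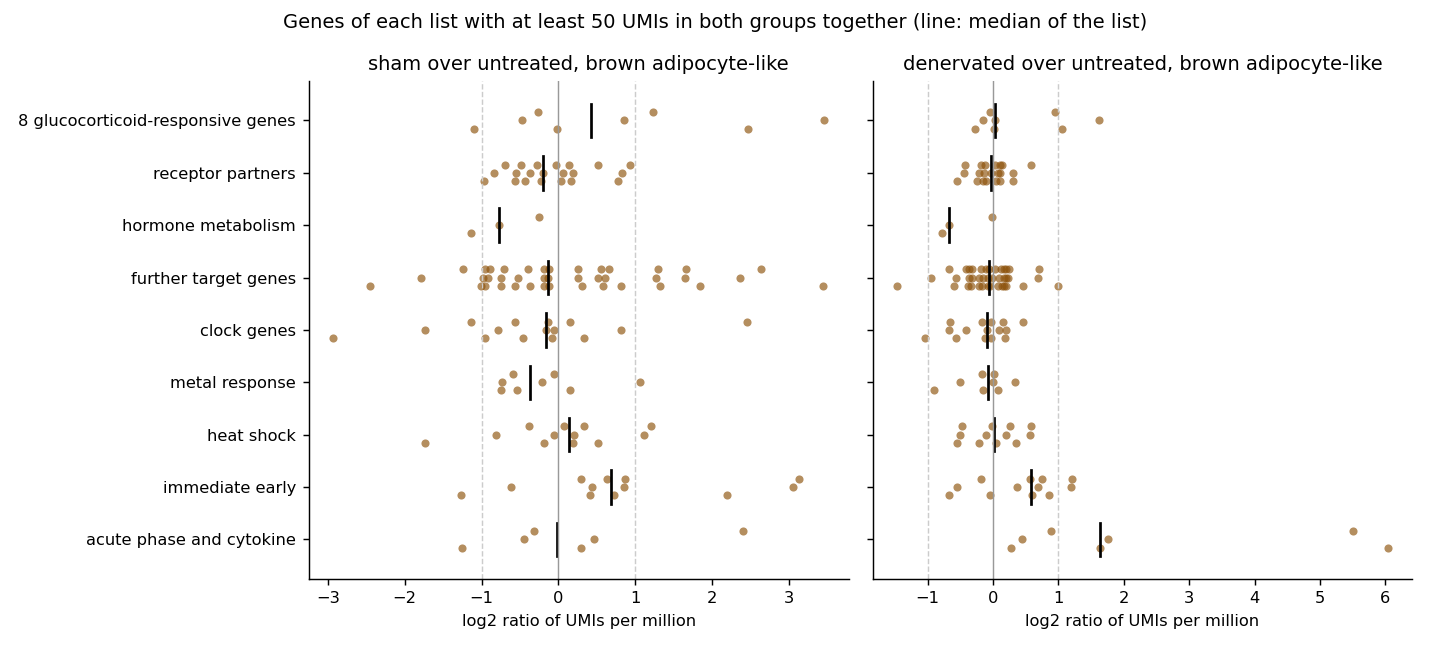
Log2 ratio of CPM in BA-like nuclei for the genes of each list with at least 50 UMIs in both libraries together, sham over untreated and denervated over untreated; each point is a gene, the vertical line the median of the list and the dashed lines 2-fold. The 40 further target genes spread from -2.45 (Sorcs2) to 3.45 (Klf15) for sham and from -1.47 (Lox) to 1.0 (Gadd45b) for denervated.

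The genes whose levels ran most like each member were found over 20 combinations of class and library, among 9893 genes, by Pearson's r of log2(CPM + 10). Combinations of 1 library share its depth and free RNA, so r is a description. Zbtb16 was nearest to Mapk1ip1 (0.87), Amer1 (0.86) and Crebrf (0.83), and Sgk1 to the endothelial genes Cdh5 and Dll4 and to Hrh2 (0.93 each). Mt1 was nearest to the stress chaperones Bag3 (0.88) and Hsph1 (0.86) and to Trhde (0.86), and Mt2 to Slc7a10 (0.90), which is high in white adipocytes, Lsmem1 (0.90) and Prr16 (0.87). Hsd11b1 was nearest to Orm1 (0.89), Pdk4 (0.88) and Tmem11 (0.85), Fkbp5 to Sec24d (0.86), Col5a2 (0.84) and Npdc1 (0.80), Nr3c1 to Sh2b3 (0.89), Madd (0.88) and Fam174a (0.87), and Tsc22d3 to Pdgfc (0.79), Cfp and Cmklr1 (0.78 each). The members were not each other's nearest genes.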

How the data were processed

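Single-nucleus libraries of the BD Rhapsody whole transcriptome assay were measured in 3 conditions, 1 library each. The authors deposited tables of UMI counts per barcode and gene. Per the file headers, the untreated and denervated data went through version 1.9-nuclei of the BD WTA Rhapsody pipeline against GRCm38 and GENCODE vM19. The submitters' processing notes name GRCh38 and Seurat 4.0.6, and the sham table has no header. Whether the sham data went through the same pipeline version is therefore not known. A difference in such processing and the sham operation cannot be told apart in these libraries.

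A barcode was kept if it had 200 or more genes and no more than 50% of mitochondrial UMIs. Doublets, taken as barcodes where 2 lists that exclude each other both had 3 or more UMIs and the lower sum was 25% or more of the higher, were removed (19.8% of untreated, 26.2% of sham, 11.6% of denervated). Each library was clustered on 2000 variable genes, without the members and list genes, with 30 components, 20 neighbours and Louvain resolution 0.5 (python-igraph 0.11.9, scikit-learn 1.9.0), and named from at least 3 markers. CPM were sums over a class. Intervals are exact Poisson (levels), Clopper-Pearson (shares) and conditional binomial (ratios), at 95% (scipy 1.17.1). The code was tested on simulated data. All members were named; of other lists, up to 3 genes with the highest and 2 with the lowest ratio. Members and lists were chosen with earlier results of these data known. Gene models came from GENCODE on GRCm38 and promoters from RefSeq on GRCm38.p6. Alternatives covered filters, doublets, clustering, scaling, depth and free RNA.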

Additional observations from a re-analysis of the deposited data

Results flagged for a closer look

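A pair of genes differed in direction between nucleus classes under the same contrast, with intervals on opposite sides of 0, and the difference itself was not tested because each condition is 1 library. The log2 ratio of Mt2, denervated over sham, was 0.75 (0.09 to 1.40) in ECs and -0.85 (-1.19 to -0.51) in BA-like nuclei, where it turned to 0.29, with an interval that includes 0, in nuclei without any UMI of heat shock and immediate early genes. That of Hsd11b1, denervated over untreated, was 1.58 (0.91 to 2.25) in ECs and -0.27 (-0.44 to -0.09) in BA-like nuclei. Brown adipocyte markers in denervated ECs were at 34.4% of their BA-like level, beside 12.2% to 13.7% in the other 2 libraries. After subtraction of the profile of all barcodes, Mt2 in ECs was at or under 3 UMIs and Hsd11b1 in denervated ECs kept 10.1 of its 46 UMIs.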

How the results depend on the processing

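No paired analysis was possible because there is 1 library per condition. Of 1204 alternative values of the members' log2 ratios, 974 lay within the counting interval of the value reported. Between libraries, the sign changed in 4 of 350 alternative values of ratios of at least 1 in size, in 10 of 217 values of smaller ratios whose interval left out 0, and in 81 of 373 values of the others. The 10 concern Nr3c1, Mt1 and Mt2 in BA-like nuclei and Sgk1 in ECs. For Zbtb16, sham over untreated, the alternatives other than the mean log scale ran from 3.24 to 3.66 in BA-like nuclei. They ran from 3.59 to 5.25 in ECs and from 1.2 to 3.17 in PCs. For Mt2 in BA-like nuclei the other alternatives ran from 1.06 to 4.41 and for Sgk1 from -2.29 to -0.80. On the mean log scale the differences for Zbtb16 were 1.52 in BA-like nuclei, 0.66 in ECs and 0.51 in PCs. In BA-like nuclei the differences on that scale were 0.12 for Mt2 and -0.05 for Sgk1.

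Among the larger ratios the sign changed for Zbtb16, denervated over untreated ECs, at -1.71 with free RNA subtracted and the denervated level at its floor of 3 counts. Nuclei without heat shock or immediate early UMIs were an alternative chosen after seeing the data, which also favours shallow nuclei. In them Fkbp5 sham over untreated was -0.27 in BA-like nuclei and -0.50 in PCs, and Mt1 in PCs was -0.33, from few UMIs. The median over the 8 members, including those under 50 UMIs, moved as follows, where values on the mean log scale are again of an unlike measure. Sham over untreated BA-like nuclei gave 0.42 as reported, 0.59 with nuclei assigned from their own markers, 0.00 with the mean of log2(counts per 10000 + 1), and, chosen after seeing the data, 0.78 with all adipocyte-like clusters and -0.01 in nuclei without stress UMIs. ECs gave 0.27 and -0.35 with free RNA subtracted. PCs gave 0.68, then 0.14 from own markers, 0.05 on the mean log scale and -0.33 without stress UMIs. Denervated over untreated gave 0.49 with all adipocyte-like clusters against 0.03 in BA-like nuclei, and in ECs 0.10 with free RNA subtracted and 0.02 on the mean log scale against 0.81. Denervated over sham BA-like nuclei gave -0.30 from own markers, -0.26 with all adipocyte-like clusters and 0.19 without stress UMIs against 0.03. The causes were not tested. Leaving out clusters led by heat shock or immediate early genes gave no value at resolution 0.5, where none was led by them. At resolution 1 and at 10% mitochondrial UMIs a large untreated EC cluster was led by haemoglobin genes and stayed unnamed. The share of all genes called in either direction, at minimums of 20, 50 and 200 UMIs, was 9.91%, 5.35% and 1.75% for denervated over untreated BA-like nuclei and 9.53%, 6.03% and 3.80% for sham over untreated ECs. For PCs it was 10.2% and 6.10% (sham) and 13.6% and 8.92% (denervated over untreated) at 20 and 50 UMIs.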
